A study of Rattus norvegicus with 63 samples.

Results

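The 10 genes described here encode chaperones, co-chaperones and one transcription factor of the endoplasmic reticulum (ER) stress response: Hspa5, Hsp90b1, Pdia4, Calr, Dnajb9, Dnajc3, Sdf2l1, Creld2, Manf and Xbp1. They were taken by name from 14218 genes that had a probe set annotated to a single symbol, and for a gene with several probe sets the one of highest mean log2 signal was used. Each of the 10 had 1 such probe set, and all 10 passed the filter on low signal in both brain regions.

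The study measured RNA of the striatum and the prefrontal cortex of male Wistar rats that self-administered amphetamine, methamphetamine or methylphenidate, on 63 expression arrays. The rats were 4 weeks old at purchase and received the first injections at 6 weeks. Rats of the pretreated cohort were injected with their later stimulant at 5 mg/kg 2 times a day for 7 days, were conditioned with it in a place preference test at 5 mg/kg and then pressed for it, and this cohort's saline controls are labelled as given saline throughout. Rats of the naive cohort were given saline injections for the same 7 days and met the stimulant first at conditioning, at 1.25 or 5 mg/kg for amphetamine and methamphetamine and at 5 mg/kg for methylphenidate. Infusions were 0.1 mg/kg of amphetamine or methamphetamine, 0.25 mg of methylphenidate in 0.1 ml, or 0.1 ml of saline. On the day after the final session brains were collected from the rats that had self-administered best, so that the stimulant groups are selected animals, and the striatum was dissected as rostral caudate putamen with nucleus accumbens. Each of the 3 pretreated stimulant groups and the pretreated saline group had 3 arrays per region. Each naive stimulant group had 3 arrays per region, except methamphetamine at 1.25 mg/kg in the prefrontal cortex with 2, and the naive saline group had 5 per region. The labels mention pooled RNA, and where arrays do not stand for separate rats, the p-values measure only the spread between these samples.

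Signals were MAS5 intensities scaled to a trimmed mean of 500.1 to 500.2 on every array, and replicates correlated at 0.931 to 0.958. The naive arrays fell into 2 sets by the signal of the hybridisation control BioB, 23 arrays at 9.35 to 10.6 and 16 arrays at 5.96 to 6.68 on the log2 scale, called high-BioB and low-BioB arrays here. Naive groups conditioned with 1.25 mg/kg and naive methamphetamine at 5 mg/kg had high-BioB arrays, naive amphetamine and methylphenidate at 5 mg/kg had low-BioB arrays, and naive saline had 3 high-BioB and 2 low-BioB arrays per region. Striatal marker genes exceeded cortical ones by 3.09 to 5.29 log2 units on 31 of the 32 striatal arrays, but on replicate 1 of naive striatal methamphetamine at 1.25 mg/kg this difference was -0.82, which lay among the values of the prefrontal cortex (-1.59 to 0.099). That array goes against its tissue label. Some results that rest on it are given with and without it, and others only with it. The 24 pretreated arrays read 9.01 to 10.2 for BioB, and since the labels do not say that the cohorts were run together, cohort and array run cannot be told apart.

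Proteins that enter the secretory pathway fold in the ER with the help of resident chaperones, and when unfolded protein accumulates, the sensors IRE1, PERK and ATF6 raise the transcription of chaperone genes in the unfolded protein response. Hspa5 (BiP, GRP78) binds unfolded chains and holds the sensors inactive, and neurons draw on the pathway for the synthesis of receptors, channels and secreted peptides. ATF6 and XBP1 act on chaperone promoters through the ER stress response element (ERSE).

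The promoters are shown because this shared element is what places most of these genes under one control in textbook accounts. RefSeq promoter windows of the GRCr8 rat genome, from 250 bases before to 50 after the gene start, were matched for 9 of the 10 genes, all but Manf. The ERSE, CCAAT and CCACG with 9 bases of any kind (N) between them, was searched on both strands and was found in 6 of the 9 windows, while 22 of 33469 windows in all (0.0657%), and 18 of 13193 windows of genes on the array (0.136%), held it. Hspa5, Calr, Creld2, Dnajc3 and Xbp1 had 1 match each and Hsp90b1 had 2, and none was found in the windows of Pdia4, Dnajb9 and Sdf2l1. The windows of the 3 most discussed of these genes are printed 5′ to 3′ on the gene's strand, with the fixed bases of each ERSE match in capitals. They are chr3:38452766-38453065 on the plus strand for Hspa5, chr7:23012244-23012543 on the minus strand for Hsp90b1 and chr19:40213117-40213416 on the plus strand for Calr.
Hspa5: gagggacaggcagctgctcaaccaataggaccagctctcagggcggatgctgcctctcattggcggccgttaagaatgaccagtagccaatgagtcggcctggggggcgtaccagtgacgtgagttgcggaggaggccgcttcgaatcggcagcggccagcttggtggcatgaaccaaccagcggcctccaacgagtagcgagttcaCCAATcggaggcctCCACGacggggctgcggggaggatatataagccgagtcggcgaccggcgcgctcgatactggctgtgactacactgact
Hsp90b1: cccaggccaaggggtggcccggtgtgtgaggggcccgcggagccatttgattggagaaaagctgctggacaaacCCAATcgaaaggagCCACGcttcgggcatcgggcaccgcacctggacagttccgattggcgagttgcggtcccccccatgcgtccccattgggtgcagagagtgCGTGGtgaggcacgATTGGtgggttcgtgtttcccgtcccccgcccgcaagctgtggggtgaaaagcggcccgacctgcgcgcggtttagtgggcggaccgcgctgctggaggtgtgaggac
Calr: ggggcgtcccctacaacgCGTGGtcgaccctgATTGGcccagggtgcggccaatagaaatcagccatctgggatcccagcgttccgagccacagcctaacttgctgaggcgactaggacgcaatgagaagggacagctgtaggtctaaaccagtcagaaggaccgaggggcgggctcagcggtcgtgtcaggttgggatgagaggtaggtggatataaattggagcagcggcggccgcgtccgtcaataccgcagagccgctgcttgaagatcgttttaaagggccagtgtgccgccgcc

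The Hspa5 match began 43 bases before the gene start and read in the gene's direction. In Hsp90b1 the first match began 176 bases before the start in the gene's direction, and the second, 72 bases before it, lay on the opposite strand. The Calr match began 232 bases before the start, on the opposite strand. The matches of the other 3 genes are given as they read on the gene's strand, at chr7:121789239-121789257 for Creld2, chr14:84604558-84604576 for Xbp1 and chr15:102432534-102432552 for Dnajc3. Creld2 and Calr read as the reverse complement.
Creld2: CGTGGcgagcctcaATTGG
Xbp1: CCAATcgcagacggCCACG
Dnajc3: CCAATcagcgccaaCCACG

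The element ERSE-II, ATTGG and CCACG with 1 base between them, was in 0 of 9 (and in 0.0508% of all windows), and the ATF4 element, TGATG and AA with 1 base between them, also in 0 of 9 (3.98% of all). CCACG alone stood in 9 of 9 windows and in 31.6% of all, and the CCAAT box in 9 of 9 and in 37.5% of all, with the copies inside an ERSE counted. These are matches of letters, not measured binding sites.

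The first question of the design is whether rats that took a stimulant differed from saline rats. In the striatum the averaged differences of Hspa5 had opposite signs in the 2 cohorts. Hspa5 averaged 0.25 ± 0.09 log2 units above saline over the naive stimulant groups and 0.36 ± 0.12 below saline over the pretreated ones (difference -0.36, SE), and Hsp90b1 lay within 0.03 of saline in naive rats and -0.31 ± 0.10 from it in pretreated rats. Manf was 0.28 ± 0.08 above saline in naive striatum. None of the 10 genes passed in any of the 4 averaged comparisons (limma, Benjamini-Hochberg over 8530 genes, threshold 0.05). Over all genes tested, 0.0938% passed in naive striatum, 0.363% in pretreated striatum, 0.0586% in naive prefrontal cortex and 0.0703% in pretreated prefrontal cortex. At an unadjusted p under 0.05 there were 3 of the 10 genes in naive striatum (11.5% of all genes tested), 3 in pretreated striatum (16.2%), 2 in naive prefrontal cortex (8.73%) and 4 in pretreated prefrontal cortex (5.45%).

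Hspa5 is among the most studied sensors of ER load. In naive striatum its log2 signal was 12.11 at the lowest, 12.44 at the median and 12.93 at the highest of 15 stimulant arrays, and 12.13, 12.12, 12.32, 12.25 and 12.30 on the 5 saline arrays. Of the 15 stimulant arrays, 11 lay above every saline array. The averaged difference had an adjusted p of 0.257 (limma). It was 0.35 among the high-BioB arrays and 0.10 among the low-BioB arrays.

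In pretreated striatum Hspa5 was lower on the stimulant arrays. It read 12.35, 12.34 and 12.35 after amphetamine, 12.49, 11.78 and 12.27 after methamphetamine, and 12.36, 12.24 and 12.56 after methylphenidate, against 12.69, 12.54 and 12.78 on the saline arrays. Of the 9 stimulant arrays, 8 lay below all 3 saline arrays. The adjusted p was 0.125 (limma). Without methamphetamine replicate 1 the difference was -0.42 with an adjusted p of 0.0488, and over all arrays left out in turn it ranged from -0.43 to -0.30.

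Hsp90b1 encodes GRP94, the HSP90-type chaperone of the ER. In pretreated striatum it read 12.39, 12.35 and 12.43 after amphetamine, 12.48, 12.16 and 12.51 after methamphetamine, and 12.45, 12.31 and 12.45 after methylphenidate, against 12.66, 12.73 and 12.71 after saline. All 9 stimulant arrays were below the 3 saline arrays, with no overlap. The share of all genes tested that separated likewise is not given. The same holds for every other separation of stimulant from saline arrays, earlier or later, and for those of doses and of regions. In pretreated striatum 16.2% of all genes tested had an unadjusted p under 0.05 (limma). The difference of Hsp90b1 missed the threshold (adjusted p = 0.113, limma). In naive striatum the 15 stimulant arrays spanned 12.12 to 12.66 and held the whole saline range of 12.26 to 12.42.

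Manf encodes a small secreted protein that binds HSPA5 and is known to protect dopamine neurons when applied to them. Its log2 signal in naive striatum was 9.70 at the lowest, 9.93 at the median and 10.41 at the highest of 15 stimulant arrays, and 9.85, 9.61, 9.67, 9.73 and 9.66 on the saline arrays. The groups overlapped, but 14 of the 15 stimulant arrays lay above the saline mean and 11 above every saline array. The difference of 0.28 had an adjusted p of 0.160 (limma), and it was 0.30 among the high-BioB and 0.24 among the low-BioB arrays. In naive prefrontal cortex it was 0.27 ± 0.09 (adjusted p = 0.346, limma), with 0.25 and 0.32 in the same 2 sets of arrays. In the pretreated cohort Manf differed from saline by -0.06 in the striatum and by 0.04 in the cortex.

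**Figure D1:**
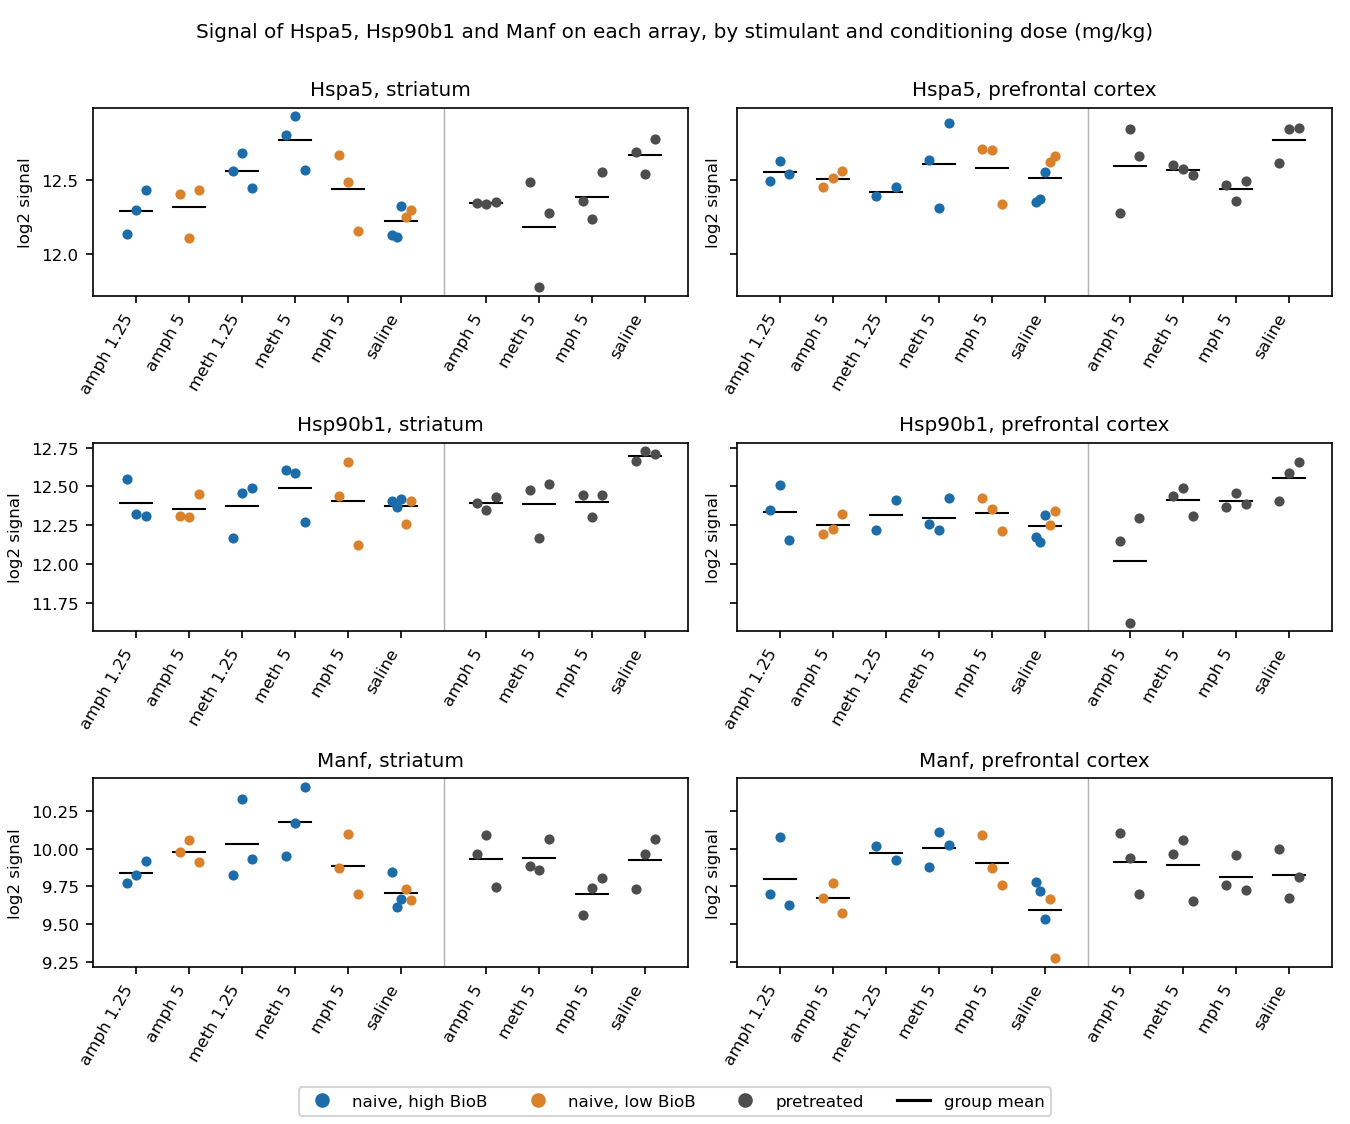
Log2 signal (y axis) of Hspa5, Hsp90b1 and Manf on each array, by group (x axis; amph, amphetamine; meth, methamphetamine; mph, methylphenidate; doses in mg/kg), with striatum on the left and prefrontal cortex on the right. Points are arrays, coloured by naive high-BioB, naive low-BioB and pretreated cohort, and the black line is the group mean; in pretreated striatum all 9 stimulant arrays of Hsp90b1 lie below the 3 saline arrays.

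Creld2, an ER-resident protein with disulfide isomerase activity that ER stress induces, was nearest to a change in naive prefrontal cortex. Its 14 stimulant arrays spanned 8.27 to 8.76 there, against 8.13 to 8.50 on the 5 saline arrays, and 10 of the 14 were above every saline array. The difference was 0.24 ± 0.07 (adjusted p = 0.322, limma), with 0.17 among the high-BioB arrays and 0.35 among the low-BioB arrays. In naive striatum it was 0.01. Sdf2l1, a partner of the HSPA5 and DNAJ system, had differences of 0.09 in naive and -0.14 in pretreated striatum and of -0.23 in pretreated prefrontal cortex.

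Calr encodes calreticulin, the lectin chaperone that holds glycoproteins and stores ER calcium. In pretreated prefrontal cortex it read 9.41, 10.48 and 10.51 after amphetamine, 10.56, 10.59 and 10.34 after methamphetamine and 10.39, 10.38 and 10.40 after methylphenidate, against 10.75, 10.80 and 10.82 after saline. All 9 stimulant arrays were below the saline arrays (the share of all genes tested is again not given), and the lowest was amphetamine replicate 1. The difference was -0.45 ± 0.15 with an adjusted p of 0.636 (limma), in a comparison where 0.0703% of all genes passed. In the same tissue Hsp90b1 differed by -0.27 ± 0.10, Hspa5 by -0.23 ± 0.11 and Pdia4, an ER protein disulfide isomerase, by -0.20 ± 0.09, with adjusted p-values of 0.639, 0.858 and 0.845 (limma).

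Xbp1 encodes the transcription factor that IRE1 activates by splicing its transcript, and a probe set signal does not tell the spliced form from the unspliced one. In naive striatum its 15 stimulant arrays spanned 10.81 to 11.51, against 10.85 to 11.06 on the saline arrays, and 10 lay above every saline array (difference 0.20 ± 0.08, adjusted p = 0.316, limma). In pretreated striatum the difference was 0.01. The DnaJ co-chaperone Dnajb9, which recruits substrates to HSPA5 and restrains IRE1, differed by 0.01 in naive and -0.02 in pretreated striatum.

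Pdia4 read 9.62, 9.82 and 9.77 after amphetamine, 9.70, 8.98 and 9.66 after methamphetamine and 9.40, 9.44 and 9.65 after methylphenidate in pretreated striatum, against 9.71, 9.92 and 9.92 after saline. Of the 9 stimulant arrays, 7 lay below every saline array, and the lowest was methamphetamine replicate 2, which was also the lowest for Hspa5 and Hsp90b1. The difference was -0.29 ± 0.13 (adjusted p = 0.286, limma). In naive striatum Pdia4 differed from saline by -0.01.

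Dnajc3, a co-chaperone also known as the PKR inhibitor P58IPK, differed by -0.20 ± 0.10 in pretreated striatum (adjusted p = 0.348, limma). It read 9.10, 9.18 and 9.27 after amphetamine, 9.20, 9.15 and 9.15 after methamphetamine and 9.36, 9.39 and 9.42 after methylphenidate, against 9.30, 9.52 and 9.51 after saline, and 6 of the 9 stimulant arrays were below all saline arrays. In naive striatum, where the difference was -0.06, its saline arrays split by BioB set, at 8.67, 9.10 and 9.05 in the high and 9.28 and 9.27 in the low set. They did so in naive prefrontal cortex as well, at 8.51, 8.87 and 8.59 against 9.09 and 9.17.

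Seen over the 10 genes, differences were above 0 for 7 in naive striatum (median 0.02), 2 in pretreated striatum (median -0.11), 9 in naive prefrontal cortex (median 0.08) and 3 in pretreated prefrontal cortex (median -0.16). Of all genes tested, 50.9% were above 0 in each naive comparison, 47.3% in pretreated striatum and 46.5% in pretreated prefrontal cortex.

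**Figure D2:**
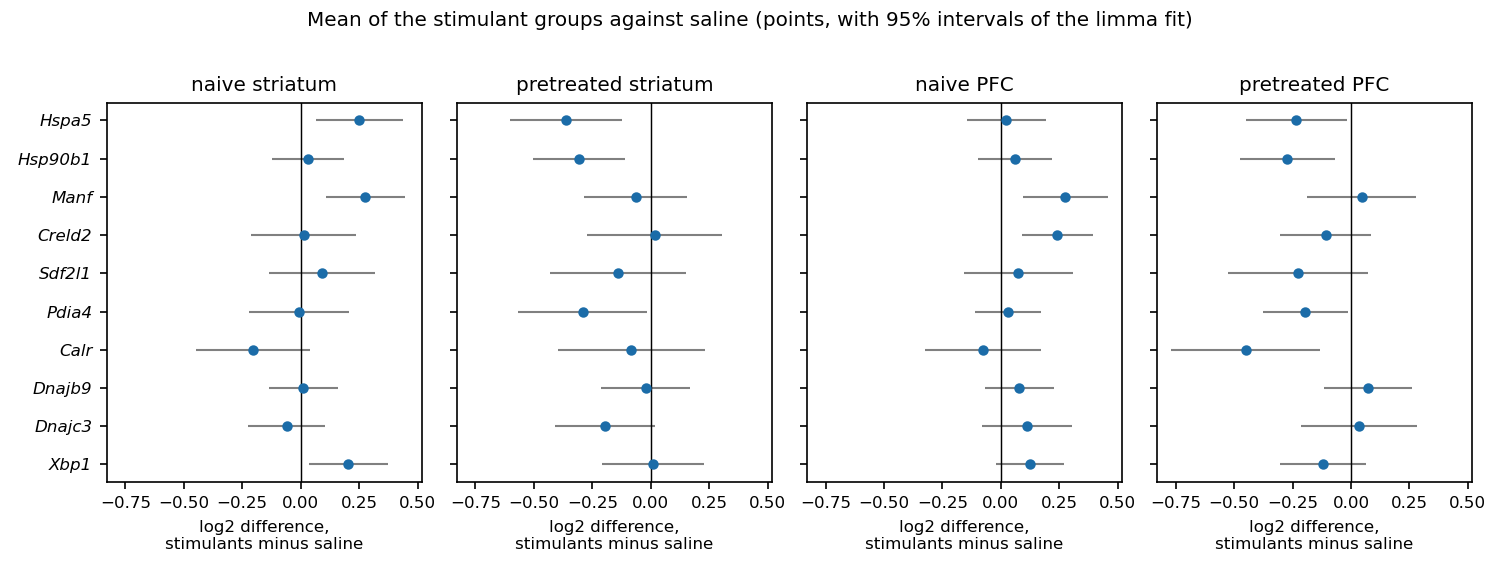
Difference between the averaged stimulant groups and saline in log2 units (x axis) for each of the 10 genes (y axis), in naive and pretreated striatum and prefrontal cortex. Points are limma estimates and bars are 95% intervals; Hspa5 and Hsp90b1 lie below 0 in both pretreated panels, and Manf lies above 0 in both naive panels.

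Markers of cell types were set beside saline by counts, medians and ranges, and no marker list was tested as a whole. In naive striatum 5 of 6 tested cortical neuron markers were above saline (median 0.53), 0 of 13 oligodendrocyte markers were above it (median -0.33) and 1 of 14 striatal projection neuron markers was (median -0.23). These counts and medians are given only with replicate 1 of methamphetamine at 1.25 mg/kg, the array that goes against its tissue label. Its mean cortical marker signal was 9.81. On the other high-BioB stimulant arrays this signal was 7.46 to 8.25, against 7.41 to 7.49 on the saline arrays of that set. On low-BioB stimulant arrays it was 7.45 to 8.56, against 7.80 to 7.94. In pretreated striatum all 11 astrocyte markers (median 0.23) and all 8 microglial markers (median 0.35) were above saline, with 5 of 6 cortical neuron markers (median 0.70), 2 of 13 oligodendrocyte markers (median -0.24) and 1 of 14 striatal projection neuron markers (median -0.28). Mean signals there were 12.2 to 12.4 against 11.9 to 12.1 for astrocytes, 8.62 to 9.49 against 8.60 to 8.76 for microglia, 7.62 to 8.79 against 7.10 to 7.85 for cortical neurons and 11.9 to 12.2 against 12.2 to 12.4 for striatal projection neurons, stimulant before saline. In naive prefrontal cortex 3 of 13 oligodendrocyte markers were above saline (median -0.25), with mean signals of 10.5 to 10.9 on high-BioB stimulant arrays, against 11.05 to 11.11 on saline arrays, and of 10.6 to 11.1 on low-BioB stimulant arrays, against 10.7 to 11.1. Of the 10 listed blood cell markers 1 passed the filter, and the mean signal of those on the array, filter aside, on low-BioB arrays was 6.36 to 8.69 after stimulants, against 4.56 to 4.73 after saline, in the striatum, and 6.54 to 7.82, against 4.61 to 5.28, in the cortex. On high-BioB arrays it was 6.09 to 8.90, against 6.36 to 7.04, in the striatum and 5.67 to 8.83, against 5.86 to 6.87, in the cortex. The log2 ratio of the 3′ to the 5′ probe sets of beta-actin was 2.93 to 3.83 on high-BioB striatal stimulant arrays, against 2.71 to 2.77 on their saline arrays. The log2 ratio of Gapdh 3′ to 5′ probe sets, a sign of RNA quality, was 0.877 to 1.24 on pretreated striatal stimulant arrays, against 0.744 to 1.04 on their saline arrays. The part of any of these in the values of the 10 genes was not tested, and in tissue RNA fewer cells of a type and less RNA per cell cannot be told apart.

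Each stimulant group was next set against the saline group of its cohort and region, which gave 16 comparisons that share saline arrays within a cohort. Again none of the 10 genes passed in any of them, and few of all genes did. In naive striatum 0.34% of all genes passed after amphetamine at 1.25 mg/kg, 0% at 5 mg/kg, 0.188% after methamphetamine at 1.25 mg/kg, 0.328% at 5 mg/kg and 0.129% after methylphenidate, and in pretreated striatum 0%, 0.703% and 0.0821% passed after amphetamine, methamphetamine and methylphenidate. In naive prefrontal cortex 0.492% passed after amphetamine at 1.25 mg/kg, 0.0117% at 5 mg/kg, 11.1% after methamphetamine at 1.25 mg/kg (the group with 2 arrays), 0.0352% at 5 mg/kg and 0% after methylphenidate, and in pretreated cortex 0.0234%, 0.0117% and 0.0938% passed after the 3 stimulants. Methamphetamine at 5 mg/kg gave the highest naive striatal group means of Hspa5 and Manf. Hspa5 read 12.80, 12.93 and 12.57 there, against 12.12 to 12.32 on the saline arrays, with no overlap (0.54 ± 0.13, adjusted p = 0.0542, limma, with 0.328% of all genes called). The value among high-BioB arrays, which hold this whole stimulant group, was 0.58. Without the striatal array of cortical profile, which is in the methamphetamine 1.25 mg/kg group and enters only through the estimate of spread, the adjusted p was 0.0468. Adjusted p-values so near the threshold moved across it with small changes of the fit.

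Manf read 9.95, 10.17 and 10.41 after methamphetamine at 5 mg/kg in naive striatum, against 9.61 to 9.85 after saline, also without overlap (0.47 ± 0.12, adjusted p = 0.0682, limma). In naive prefrontal cortex it read 9.88, 10.11 and 10.02 in this group and 10.02 and 9.93 at 1.25 mg/kg, against 9.28 to 9.78 after saline. These differences were 0.41 ± 0.12 (adjusted p = 0.272) and 0.38 (adjusted p = 0.0797, limma). Over both regions, every naive methamphetamine array but striatal replicate 1 at 1.25 mg/kg, the array of cortical profile at 9.82, was above the naive saline arrays of its region for Manf.

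In the pretreated cohort, methamphetamine gave the lowest striatal Hspa5 mean, -0.49 ± 0.14 from saline (adjusted p = 0.0961, limma, with 0.703% of all genes called). Its replicate 2 at 11.78 stood below the other 2, at 12.49 and 12.27, and the difference was -0.29 without it. Amphetamine gave -0.53 ± 0.12 for Hsp90b1 in the prefrontal cortex (adjusted p = 0.106, limma), where replicate 2 read 11.62 and the others 12.15 and 12.30, and -0.33 without replicate 2. Calr in the same group was at -0.66 ± 0.19 (adjusted p = 0.319, limma) and at -0.29 without replicate 1.

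**Figure D3:**
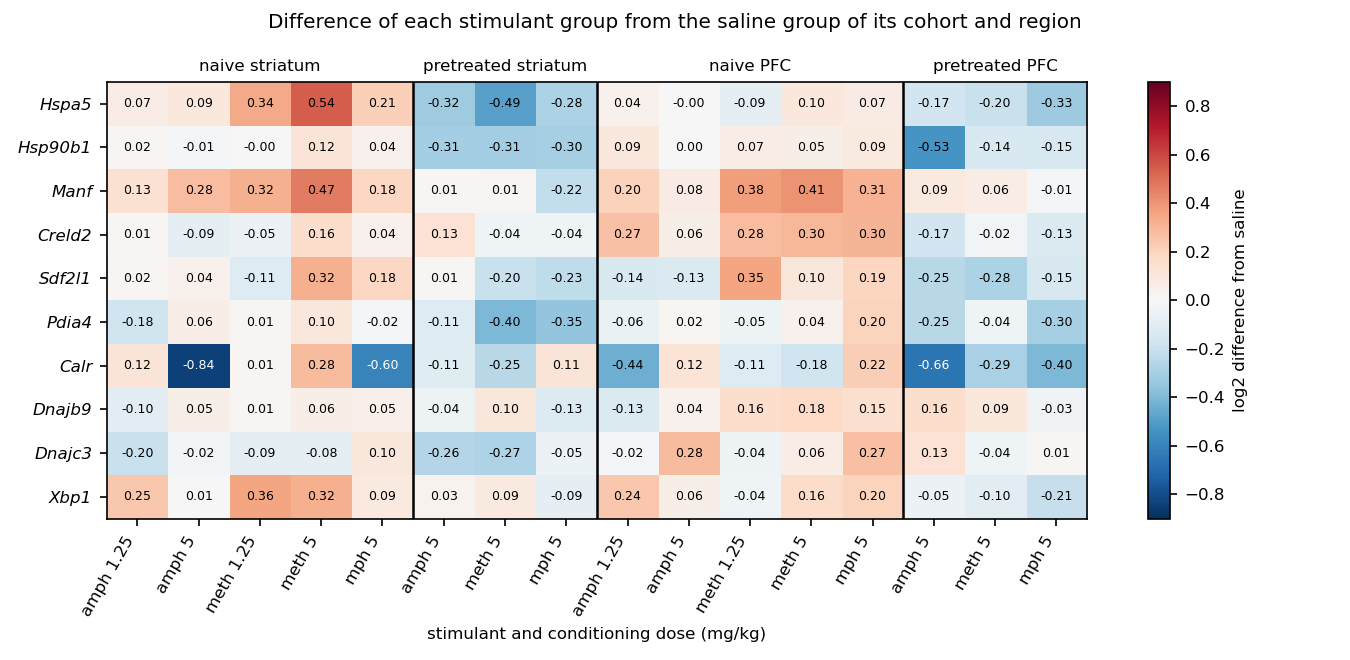
Difference from saline in log2 units, printed and coloured, for the 10 genes (y axis) in the 16 stimulant groups (x axis). Saline arrays are shared within a cohort and region; Hspa5 and Manf are above 0 in every naive methamphetamine group of the striatum, and Calr reaches -0.84 after naive amphetamine at 5 mg/kg.

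Calr gave the widest spread between groups. In naive striatum it read 9.73, 9.64 and 9.47 after amphetamine at 5 mg/kg and 9.82, 9.69 and 10.04 after methylphenidate, but 10.81, 10.71 and 10.68 after methamphetamine at 5 mg/kg, against 10.53, 10.67, 10.75, 10.37 and 9.93 after saline. The amphetamine arrays lay below every saline array, and the methamphetamine arrays lay at or above the upper saline values. Set against each other at 5 mg/kg, amphetamine was 1.12 below methamphetamine (difference -1.12, 95% interval -1.51 to -0.73, adjusted p = 0.00319, limma, with 1.58% of all genes called). Methamphetamine was 0.88 above methylphenidate (0.50 to 1.27, adjusted p = 0.0223, limma, with 1.57% called). These were the only calls of the 10 genes among 14 comparisons of stimulants at matched dose and cohort, 7 in each region.

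The low Calr groups are the low-BioB ones. Naive amphetamine and methylphenidate at 5 mg/kg were on low-BioB arrays and methamphetamine on high-BioB arrays, and among the saline arrays the high-BioB ones read 10.53, 10.67 and 10.75 and the low-BioB ones 10.37 and 9.93. With the set of arrays in the fit as a block, the differences were -0.62 (adjusted p = 0.57) and 0.38 (adjusted p = 0.744, limma), and neither passed. With this block 1 of all genes tested passed in each comparison, against 135 and 134 without it, so that the loss is not particular to Calr. Amphetamine and methylphenidate at 5 mg/kg, both on low-BioB arrays, differed by -0.23 (-0.62 to 0.15). Among low-BioB arrays alone, amphetamine was -0.54 and methylphenidate -0.30 from saline. The call of methamphetamine over methylphenidate was also lost without methamphetamine replicate 1 (0.85, adjusted p = 0.0528), methylphenidate replicate 1 (0.87, adjusted p = 0.103) or methylphenidate replicate 2 (0.81, adjusted p = 0.0963), all with limma.

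In naive prefrontal cortex the Calr order was turned. Amphetamine at 5 mg/kg read 10.21, 10.06 and 10.40 and methylphenidate 10.36, 10.41 and 10.21, while methamphetamine at 5 mg/kg read 9.86, 9.65 and 10.26. Saline arrays read 9.84, 9.86 and 10.25 in the high-BioB set and 10.23 and 10.33 in the low-BioB set, and the 2 sets overlapped. None of the 10 genes passed in the 7 cortical comparisons of stimulants, in which 6.26% of all genes passed between amphetamine and methamphetamine at 1.25 mg/kg, 1.45% between them at 5 mg/kg, 1.85% between methamphetamine and methylphenidate and 0% in the other 4.

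Where 2 stimulants had arrays of one set, the intervals were wide for the members. In naive striatum at 1.25 mg/kg, all on high-BioB arrays, amphetamine and methamphetamine differed by 0.10 for Calr (-0.28 to 0.49) and by -0.27 for Hspa5 (-0.57 to 0.02). That methamphetamine group includes the array of cortical profile, and both values are given only with it. In pretreated striatum methamphetamine and methylphenidate differed by -0.36 for Calr (-0.75 to 0.02), amphetamine and methamphetamine by 0.14 (-0.25 to 0.53) and amphetamine and methylphenidate by -0.22 for the same gene. None of the 8530 genes passed in these 4 comparisons. At 5 mg/kg in naive striatum, Hspa5 was -0.45 (-0.74 to -0.16) between amphetamine and methamphetamine, with an adjusted p of 0.0952 (limma).

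**Figure D4:**
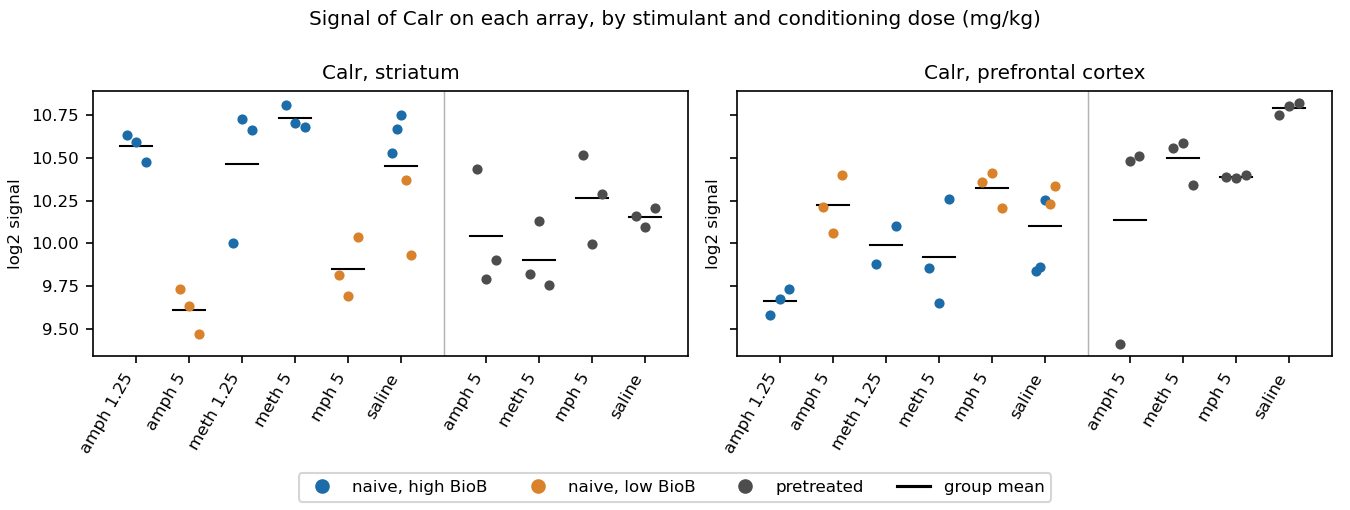
Log2 signal of Calr (y axis) on each array by group (x axis), striatum left and prefrontal cortex right, with colours for naive high-BioB, naive low-BioB and pretreated arrays and a black line at the group mean. In naive striatum the low-BioB arrays all lie below the high-BioB ones, the array of cortical profile left aside, and in naive prefrontal cortex 4 of the 8 low-BioB arrays lie above every high-BioB array.

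The conditioning dose was compared within the naive cohort. Calr in the striatum was the only call, -0.96 ± 0.19 between amphetamine at 5 mg/kg (9.73, 9.64 and 9.47) and at 1.25 mg/kg (10.64, 10.59 and 10.48), with an adjusted p of 0.0196 (limma) where 1.68% of all genes passed. The arrays of the 2 doses did not overlap (the share of all genes tested is again not given). In this comparison 19.1% of all genes tested had an unadjusted p under 0.05 (limma). The higher dose was on low-BioB and the lower on high-BioB arrays. With the set of arrays as a block the difference was -0.46 (adjusted p = 0.909, limma), and 0 of all genes tested passed, against 143 without the block. With the Gapdh ratio as a covariate instead, the difference was -0.88 (adjusted p = 0.0719, limma). The call was also lost, at adjusted p-values of 0.0549 to 0.0887, without amphetamine 1.25 mg/kg replicate 3 or any 1 of the 3 arrays at 5 mg/kg. In the prefrontal cortex the same pair was at 0.56 ± 0.19 (adjusted p = 0.0643, limma, with 7.07% of all genes called), and 0.27 with the block.

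Both methamphetamine doses were on high-BioB arrays, and 0% of all genes passed between them in either region. In the striatum 9 of the 10 genes read higher at 5 than at 1.25 mg/kg, as did 51.3% of all genes tested. The differences included 0.20 for Hspa5, 0.27 for Calr and 0.44 ± 0.17 for Sdf2l1 (adjusted p = 0.837, limma). The arrays at 1.25 mg/kg include the array of cortical profile, and these differences are given only with it. Sdf2l1 read 9.11, 8.98 and 9.40 at 5 mg/kg and 8.47, 9.19 and 8.52 at 1.25 mg/kg, where 8.47 is the array of cortical profile.

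A further question is whether the stimulant effect at 5 mg/kg depended on pretreatment, tested as the difference of the pretreated and the naive effects. None of the 10 genes passed in either region, where 0.0586% of all genes passed in the striatum and 0.0117% in the prefrontal cortex. Hspa5 in the striatum came nearest: the difference of effects was -0.65 ± 0.15 (unadjusted p = 2.2e-04, adjusted p = 0.0726, limma). At 5 mg/kg Hspa5 averaged 12.30 ± 0.22 in pretreated rats (SD, n = 9) and 12.51 ± 0.27 in naive rats (SD, n = 9), while after saline it averaged 12.67 ± 0.12 in the pretreated cohort (SD, n = 3) and 12.22 ± 0.10 in the naive cohort (SD, n = 5). The cohort difference was thus -0.20 at 5 mg/kg and 0.44 after saline, and the saline arrays of the 2 cohorts did not overlap. The adjusted p was 0.0442 without the array of cortical profile and between 0.0217 and 0.255 with single arrays left out.

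Other striatal differences of effects were -0.35 ± 0.12 for Hsp90b1 (adjusted p = 0.157), -0.37 ± 0.14 for Manf (adjusted p = 0.175, limma), -0.34 for Pdia4, -0.32 for Sdf2l1 and 0.30 for Calr. Of the 10 genes, 9 were below 0 in the striatum and 10 in the prefrontal cortex (medians -0.26 and -0.28), while of all genes tested 47.0% were above 0 in the striatum and 46.2% in the cortex. Calr was at -0.51 in the cortex, and 6 of the 10 had an unadjusted p under 0.05 there (4.47% of all genes tested), but adjusted p-values were 0.999.

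The saline levels behind these values differed by cohort. In the prefrontal cortex pretreated saline arrays averaged above naive saline arrays for 10 of the 10 genes (median 0.33), against 49.7% of all genes, and for 4 of them all pretreated saline arrays were above all naive ones, as for 5.64% of all genes tested. Calr, for one, averaged 10.79 ± 0.04 in pretreated saline (SD, n = 3) and 10.10 ± 0.23 in naive saline (SD, n = 5). In the striatum this held for 7 of the 10 genes (median 0.16), against 47.3% of all genes, with 3 whose pretreated saline arrays were all above the naive ones, as for 6.27% of all genes tested. At 5 mg/kg the pretreated level was the higher one for 7 of 10 genes in the cortex (median 0.05), against 45.65% of all genes. In the striatum it was the higher one for 3 of 10 (median -0.07), against 39.95% of all genes. Labels describe both saline groups as saline only, and differences between them carry cohort and array run together.

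Between the regions, saline rats of the naive cohort differed in 3 of the 10 genes, in a comparison where 40.4% of all genes passed. Creld2 was higher in the striatum (0.43 ± 0.11, adjusted p = 0.00198), while Hspa5 (-0.29 ± 0.11, adjusted p = 0.0282) and Xbp1 (-0.25 ± 0.09, adjusted p = 0.0273, limma) were lower there. Creld2 read 8.82, 8.97, 9.02, 8.64 and 8.44 in the striatum, against 8.50, 8.45, 8.44, 8.24 and 8.13 in the prefrontal cortex, with the ranges overlapping by 1 striatal array. In the pretreated cohort 2 genes passed where 27% of all genes did: Calr at -0.64 ± 0.20 (adjusted p = 0.0111) and Xbp1 at -0.36 ± 0.12 (adjusted p = 0.0217, limma). Xbp1 was thus called lower in the striatum in both cohorts. It read 11.03, 11.04, 11.06, 10.94 and 10.85 in naive striatum, against 11.23, 11.23, 11.37, 11.27 and 11.08 in naive cortex, without overlap (the share of all genes tested is again not given). With arrays of the same group and replicate number taken as a block across the regions, an alternative chosen after seeing the data, the 3 naive and 2 pretreated calls stood and Dnajc3 also passed in naive rats (0.23, adjusted p = 0.0147, limma).

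Calr was at 0.35 between the regions in naive saline rats (adjusted p = 0.0624, limma), the opposite sign to the pretreated cohort. Among the naive saline arrays it was 0.67 in the high-BioB set and -0.13 in the low-BioB set. Calls of Hspa5 and Xbp1 in naive rats were lost when some single arrays were left out, at adjusted p-values of up to 0.0806 and 0.0787, and so was that of Xbp1 in pretreated rats, at up to 0.101. Neither naive call stood within a BioB set, which holds fewer arrays. Hspa5 was at -0.23 (high-BioB, adjusted p = 0.207) and -0.37 (low-BioB, 0.115), and Xbp1 at -0.23 (0.148) and -0.28 (0.173, limma). Xbp1 also missed the threshold in naive rats with the Gapdh ratio as a covariate (-0.21, adjusted p = 0.0561, limma). In pretreated rats it did so with quantile normalization (-0.31, adjusted p = 0.0648, limma). Whether the stimulant effect differed by region was tested too, and none of the 10 genes nor any other gene passed (smallest adjusted p among the 10 genes 0.793 in naive and 0.969 in pretreated rats, limma).

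The 10 genes did not vary as one block from array to array. With each gene centred on its group means, 15 of the 45 pairs correlated over the 63 arrays at an adjusted p under 0.05 (permutation within groups, 100000 draws, two-sided, Benjamini-Hochberg over the pairs), 12 with a positive and 3 with a negative sign, and 14 of the 15 also by Spearman's rho. The highest was Manf with Sdf2l1 (r = 0.73, rho = 0.74), at the smallest p the permutations could give, 1e-05. It stood at 0.80 in high-BioB, 0.78 in low-BioB and 0.66 in pretreated arrays. Creld2 joined this pair, at r = 0.57 with Sdf2l1 and 0.50 with Manf.

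Other positive pairs ran through Pdia4 and Hspa5. Pdia4 correlated with Xbp1 at 0.61, with Hspa5 at 0.60 and with Hsp90b1 at 0.57, and Hspa5 with Xbp1 at 0.54 and with Dnajc3 at 0.50. Hspa5 and Hsp90b1 stood at 0.34 (adjusted p = 0.216, permutation). Creld2 also correlated with these genes, at 0.51 with Xbp1, 0.50 with Pdia4 and 0.36 with Hsp90b1 (adjusted p = 5.4e-04, 0.0101 and 0.0365, permutation; by rho the last was at 0.111), while Hspa5 and Manf were at -0.06 (adjusted p = 0.819, permutation). Pdia4 followed the mean of the other 9 genes most closely (r = 0.63), and Calr hardly did (0.08). Some pairs differed by region, striatum before cortex. Creld2 with Pdia4 was at 0.65 and 0.06, Creld2 with Hsp90b1 at 0.58 and 0.04, and Hsp90b1 with Pdia4 at 0.76 and 0.30. Hspa5 with Calr was at -0.21 and 0.83. Others were alike, such as Pdia4 with Xbp1 at 0.61 and 0.62 and Manf with Sdf2l1 at 0.71 and 0.74. The regional values were not tested.

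Dnajb9 gave the 3 negative pairs. It correlated at -0.56 with Xbp1, -0.44 with Pdia4 and -0.36 with Creld2, and at -0.42 with the mean of the other 9 genes. With Xbp1 the value was -0.79 in high-BioB and -0.75 in low-BioB arrays but -0.10 in pretreated arrays. Arrays within a group share tissue and dissection, and the arrays of the 2 regions may come from the same rats. These are thus not independent draws. Each naive saline group also held arrays of both BioB sets. Centring and permutation were within groups, not within sets, so a difference between sets can enter these correlations.

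**Figure D5:**
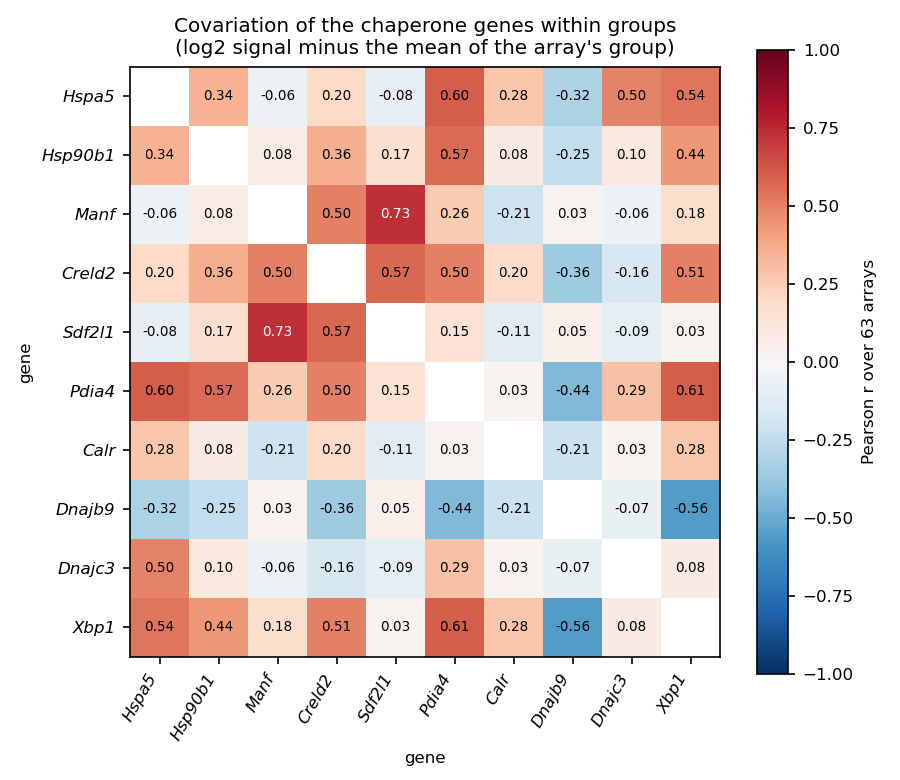
Pearson correlation (colour and printed value) between each pair of the 10 genes over 63 arrays, each gene centred on its group means. Manf with Sdf2l1 is the highest value, Creld2 is positive with both and with Xbp1 and Pdia4, and Dnajb9 is negative with Xbp1, Pdia4 and Creld2.

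Among 8231 other genes tested in both regions, those most like the mean of the 10 over the 63 arrays were Scamp3 (r = 0.55), Pdia3 (0.55), LRRTM1 (0.54), Hnrnpc (0.54), Uba6 (0.53), Cyp46a1 (0.53), Tdrp (0.53), Saraf (0.52), Sec11a (0.52) and Ptov1 (0.52). Pdia3 is the disulfide isomerase that works with calreticulin, and Sec11a is a subunit of the signal peptidase.

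The wider ER machinery gave the same picture of few calls. None of the tested genes passed in any of the 4 averaged stimulant comparisons for other folding factors and disulfide isomerases (19 tested), the stress sensors and their transducers (6), ER-associated degradation (17), the translocon (29) and retrieval and vesicle coat proteins (19), and likewise for the PERK and ATF4 branch (16 in the cortex and 15 in the striatum). Herpud1, a degradation component known as an ER stress target, was at 0.23 in naive and 0.33 in pretreated striatum and at 0.45 in pretreated prefrontal cortex (adjusted p = 0.420, 0.252 and 0.325, limma). Ddit4, an ATF4 target that restrains mTOR, was at 0.67 in pretreated striatum (adjusted p = 0.0872, limma) and at 0.49 in pretreated cortex. In pretreated striatum the disulfide isomerases Pdia3 and Pdia6 were at -0.24 and -0.25 and the KDEL receptor Kdelr1 at -0.23, and in naive striatum the glucosyltransferase Uggt2 was at 0.47 and the site-2 protease Mbtps2 at 0.26, all short of the threshold.

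Calls came instead from the cytosolic heat shock list, of which 19 genes were tested. Dnajb1, an HSP40 co-chaperone, was higher in naive striatum (0.38 ± 0.07, adjusted p = 0.0192), where 0.0938% of all genes passed. Hspa4l, an HSP110 family member, and the HSP40 Dnaja1 were lower in pretreated striatum (-0.51 ± 0.12 and -0.42 ± 0.10, adjusted p = 0.0465 and 0.0488, limma), where 0.363% passed. Between regions in saline rats, 40.4% of all genes passed in naive and 27% in pretreated rats. Atf4, the transcription factor of the PERK branch, was lower in the striatum in both cohorts, at -0.65 in naive (adjusted p = 9.06e-10) and -0.67 in pretreated rats (adjusted p = 5.45e-07, limma). Genes of the same branch were called in both directions. Chac1 was also lower in the striatum, at -0.34 and -0.35, but Cebpg was higher, at 0.30 and 0.27, as was Psat1 in naive rats, at 0.26. The site-1 protease Mbtps1, which cuts ATF6, was higher in the striatum, at 0.49 and 0.71.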

How the data were processed

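RNA of 31 prefrontal cortex and 32 striatum samples was measured on 1-colour Affymetrix arrays. The deposited values are linear signal intensities; per the submitters' processing notes they were made with MAS5, whose version is not given in the sources used here. Scaling was not repeated. Values under 1 (18232 of them) were set to 1 and log2 was taken. Of 31099 probe sets, 20832 carried a single symbol and gave 14218 genes, 1 probe set each, that of highest mean. In each fit the 40% of genes with the lowest mean were left out, so that 8530 were tested. Group means were fitted per region, and over both regions for region comparisons, with limma 3.58.1 in R 4.3.3 (lmFit, eBayes with trend) and Benjamini-Hochberg adjustment at 0.05. Differences are stimulant minus saline, striatum minus prefrontal cortex, 5 minus 1.25 mg/kg and pretreated minus naive. The code was tested on simulated data.

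The members and the gene lists were chosen with earlier results of these data known. All 10 members are named. Of the pathway lists, up to 4 genes that passed, or otherwise the 2 of smallest p, could be named. Alternatives were other filters, quantile normalization, all probe sets, array set, Gapdh ratio and replicate number in the fit, a cohort's arrays alone, the array of cortical profile left out and each replicate left out. The precision is limited by the number of arrays. Promoter sequences and motif counts come from RefSeq, build GRCr8.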

Additional observations from a re-analysis of the deposited data

Results flagged for a closer look

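Of the 20 gene and group sets with 4 to 10 arrays, 2 had 1 array far from the others by Dixon's ratio, the gap to the nearest array over the group's whole range, and chance gives such a ratio in about 1 of 20 sets. Both are in the naive striatal saline group. Pdia4 read 9.92 on saline replicate 3 and 9.55 to 9.58 on the other 4 arrays (ratio 0.930), and Dnajb9 read 10.35 on saline replicate 2 and 10.52 to 10.54 on the others (ratio 0.883).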

How the results depend on the processing

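The number of arrays sets the limit here: most groups have 3 arrays, and signals near background are left out by the filter. Apart from leaving out single arrays, 991 values of members kept their direction and side of the threshold, 17 gained and 12 lost the threshold and 20 turned. Of the counts of members called, 147 stayed equal or nearly so and 15 moved. Replicate numbers did not pair the samples of a region: same-numbered arrays of different groups had deviations correlated at a median of -0.003 (37 of 121 pairs over 0.1). Across the regions of a group, however, the median was 0.20 (23 of 31 pairs over 0.1), and 46 of 62 arrays correlated best with their own number. For other numbers the median was -0.10. Deviations from a group mean cancel out within the group, so this last value is not a separate comparison. A replicate block within each group across the regions, chosen after seeing the data, gave 4 regional calls in naive saline (44.0% of all genes) and 2 in pretreated saline (30.8%). With the replicate number as a block, 2 members passed among the single groups against saline in the prefrontal cortex (where 7.69% and 9.51% of all genes passed) and 2 in the striatum (7.98% and 7.17%), 1 in the cortical dose comparison (11.5%) and 1 in the striatal cohort comparison (4.45%), and signs turned for Sdf2l1 (-0.010) and Calr (0.056) in naive cortex, Creld2 (-0.15) and Dnajc3 (0.074) in naive striatum and Creld2 in the striatal cohort comparison (0.14). With the set of arrays as a block, 0 members passed between stimulants and 0 between doses in the striatum, and Dnajb9 was at 0.024 in the cortical cohort comparison. In the striatal comparisons that had held calls of Calr, 1, 1 and 0 of all genes passed with that block. With the Gapdh ratio as a covariate, 1 passed between stimulants, 0 between doses and 1 against saline in the striatum, and Pdia4 was at 0.0080 in naive striatum. Without the array of cortical profile, 2 members passed against saline and 1 in the cohort comparison in the striatum, and Pdia4 was at 0.011 in naive striatum. All probe sets gave 1 call against saline in the striatum, the naive arrays alone 1 cortical dose call, and quantile normalization 1 regional call in pretreated saline, -0.0025 for Dnajb9 in naive striatum and 0.0050 for Creld2 in the striatal cohort comparison. Within high-BioB arrays the averaged difference turned for Pdia4 in naive cortex (-0.025) and for Creld2 (-0.12) and Dnajc3 (0.0090) in naive striatum. Within low-BioB arrays it turned in naive cortex for Hspa5 (-0.10), Hsp90b1 (-0.0079), Dnajb9 (-0.067) and Dnajc3 (-0.0080) and in naive striatum for Pdia4 (0.10). For the regional comparison in naive saline, the split by array set was chosen after seeing the data: Dnajb9 was at 0.047 in high-BioB and Calr at -0.13 in low-BioB arrays, where 0 members passed. The number of all genes or probe sets that passed moved over the settings too. Against saline in naive striatum it was 0 to 681 for amphetamine and 6 to 52 for methamphetamine, both at 5 mg/kg. It was 4 to 380 in the striatal cohort comparison and 26 to 978 in the cortical dose comparison of amphetamine. In the regional comparison of pretreated saline it was 1666 to 4680. With single arrays left out it is not given here. The causes were not tested.

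Leaving out 1 array at a time gave 0 to 1 calls for single groups against saline in the cortex and 0 to 2 in the striatum, 0 to 1 for averaged stimulants in pretreated striatum, 1 to 2 between stimulants, 0 to 1 between doses and 0 to 1 between cohorts in the striatum, and 1 to 4 between regions in naive and 1 to 2 in pretreated saline. Averaged differences that crossed 0 were Hspa5 in naive cortex (-0.016 to 0.062), Manf (-0.031 to 0.13) and Dnajc3 (-0.10 to 0.18) in pretreated cortex, Creld2 (-0.071 to 0.075), Pdia4 (-0.036 to 0.067) and Dnajb9 (-0.023 to 0.033) in naive striatum, and Manf (-0.16 to 0.0067), Creld2 (-0.074 to 0.19), Dnajb9 (-0.096 to 0.027) and Xbp1 (-0.041 to 0.087) in pretreated striatum. So did the cohort comparisons of Dnajb9 in the cortex (-0.095 to 0.0060) and Creld2 in the striatum (-0.11 to 0.15), and the regional differences of Dnajb9 in naive saline (-0.074 to 0.0084) and of Creld2 (-0.12 to 0.14), Pdia4 (-0.015 to 0.13) and Dnajb9 (-0.10 to 0.021) in pretreated saline.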
